A study of Mus musculus with 18 samples.

Results

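Transcripts that mark GABAergic interneurons or make their transmitter were followed in mouse cortex at embryonic day 18.5: the transcription factors *Dlx1*, *Dlx2*, *Dlx5* and *Lhx6*, the GABA synthesis enzymes *Gad1* and *Gad2*, the neuropeptides *Sst* and *Npy*, and the calcium-binding protein *Scgn*. These 9 were chosen by name from the 23038 gene symbols of the count table, and each of the 9 passed the filter on low counts in each comparison. Total RNA was sequenced from 12 cortices in 4 groups of 3: mice without *Nova2* (*Nova2-/-*), their wild-type littermates (replicates 1 to 3), mice without *Nova1* (*Nova1-/-*), and their wild-type littermates (replicates 4 to 6), all on the CD1 background. NOVA1 and NOVA2 are neuronal RNA-binding proteins that bind YCAY (Y is C or U) and control alternative splicing. Both deletions are constitutive, so every cell of the mouse carries them, and the *Nova2* allele has an IRES-Cre cassette in place of the first coding exon. Samples are called mice here, although the labels do not say whether tissue was pooled. The labels call all controls wild-type, so which of them were littermates of which knockout was inferred from their numbering and from the littermate design of the study.

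Cortical interneurons are born in the ganglionic eminences of the ventral forebrain and migrate into the cortex. The DLX homeodomain factors drive the GABAergic fate across these eminences, and LHX6 acts downstream in the lineage of the medial eminence, from which the somatostatin interneurons arise. *Npy* is made by part of the same lineage and by other interneurons, and *Scgn* is best known from interneurons of the olfactory bulb. In bulk RNA, fewer cells of a type and less RNA per cell cannot be told apart.

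In *Nova2-/-* cortex *Sst* fell and *Scgn* rose, while the transcription factors, both *Gad* transcripts and *Npy* did not pass the test. *Sst* was at 56.3% of its level in wild-type littermates and *Scgn* was 3.36-fold higher. In *Nova1-/-* cortex none of the 9 passed. Levels are given in CPM, counts scaled to a fixed library size adjusted by the TMM method, and each change is a log2 fold change with its standard error (SE) and a p adjusted over all genes tested by the Benjamini-Hochberg method.

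The start region of *Sst* is shown because *Sst* is the peptide transcript that fell, and that of *Scgn* because it is the transcript that rose. Each RefSeq window runs from 250 bases before the start of the gene to 50 bases after it, on the minus strand of GRCm38.p6, the build the authors aligned to. The capitals mark the cAMP response element, TGACGTCA, through which CREB activates *Sst*. It begins 48 bases before the *Sst* start.
Sst, chr16:23890795-23891094: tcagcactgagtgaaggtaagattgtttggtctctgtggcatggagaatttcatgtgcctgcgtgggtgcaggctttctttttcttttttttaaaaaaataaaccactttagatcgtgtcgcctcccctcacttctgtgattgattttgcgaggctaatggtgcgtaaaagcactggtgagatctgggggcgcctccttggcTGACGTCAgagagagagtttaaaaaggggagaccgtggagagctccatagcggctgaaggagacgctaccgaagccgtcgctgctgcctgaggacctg
Scgn, chr13:23991165-23991464: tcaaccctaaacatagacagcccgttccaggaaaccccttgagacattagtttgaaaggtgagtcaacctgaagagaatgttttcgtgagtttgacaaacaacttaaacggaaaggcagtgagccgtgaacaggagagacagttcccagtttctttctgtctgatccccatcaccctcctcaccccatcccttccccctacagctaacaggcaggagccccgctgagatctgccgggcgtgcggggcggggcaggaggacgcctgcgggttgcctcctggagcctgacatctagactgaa
A promoter window was found for 8 of the 9 genes, and only that of *Sst* holds TGACGTCA on either strand, against 1.79% of all 32851 windows. None of these windows holds the homeodomain core TAATTA, which 5.29% of all windows hold. The letters describe the windows and do not show that a factor binds.

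The libraries held 16518172 to 31362018 counts, and the smallest was wild-type replicate 2 of the *Nova2* litters, in which 21791 genes had a count against 18397 to 19396 in the others. Wild-type replicate 3 differed most from the rest of its group, with a chi-square of 41.7 and 26.1 per degree of freedom against replicates 1 and 2, where the other pairs within groups lay between 4.56 and 13.4. *Nova1* was at 0.0341 to 0.211 CPM in *Nova1-/-* mice and 41.5 to 75.8 CPM in their wild-type littermates, and *Nova2* at 31.0 to 40.9 CPM in wild-type littermates and 17.0 to 21.5 CPM in *Nova2-/-* mice. The *Nova2* allele lacks only the first coding exon, so the counts of the remaining exons do not test the loss of the protein. The 10 genes of a projection neuron list were all detected in each group, with summed levels of 976 to 1238 CPM, and the 7 genes of a midbrain and hindbrain list summed to at most 1.19 CPM in any mouse.

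*Dlx1* and *Dlx2* lie 9428 bases apart on chromosome 2 of mm9, from 71366170 to 71372038 and from 71381466 to 71384811, and are transcribed from opposite strands. *Dlx1* was at 88.3, 82.0 and 79.2 CPM in the wild-type littermates of *Nova2-/-* mice and at 81.3, 87.5 and 83.8 CPM in *Nova2-/-* mice, a log2 fold change of 0.02 (SE 0.07, adjusted p = 0.905, edgeR's quasi-likelihood test). The groups overlapped. The antisense RNA *Dlx1as* shares 335 exonic nucleotides with *Dlx1*, which is 6.21% of the exonic length of *Dlx1*. The library kit does not keep the strand, so reads from the shared stretch cannot be told apart. *Dlx2*, which acts with *Dlx1* and is partly redundant with it, was at 7.89, 8.06 and 6.81 CPM in wild-type and 6.36, 7.68 and 9.06 CPM in *Nova2-/-* mice, so that the knockout values spanned the wild-type ones. Its log2 fold change was 0.03 (SE 0.17, adjusted p = 0.949, edgeR's quasi-likelihood test).

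*Dlx5* (chromosome 6 of mm9, 6827805 to 6832085, minus strand), which is expressed later in the lineage and is induced by DLX1 and DLX2, was at 3.24, 3.85 and 4.79 CPM in wild-type and 3.34, 3.14 and 4.16 CPM in *Nova2-/-* mice. Its log2 fold change was -0.16 (SE 0.22, adjusted p = 0.735, edgeR's quasi-likelihood test), and this standard error is the largest among the 4 transcription factors. *Lhx6* (chromosome 2 of mm9, 35937470 to 35960928, minus strand) was at 39.9, 38.5 and 44.4 CPM in wild-type and 39.5, 38.3 and 42.4 CPM in *Nova2-/-* mice. Its log2 fold change was -0.03 (SE 0.09, adjusted p = 0.907, edgeR's quasi-likelihood test). *Lhx6*, a factor of the medial eminence lineage from which the somatostatin interneurons arise, had overlapping values in knockout and wild-type mice. *Sst* was low in the same libraries, and the number of somatostatin interneurons was not measured.

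*Gad1* (chromosome 2 of mm9, 70391129 to 70440071, plus strand) encodes GAD67, which makes most of the GABA of the brain, and *Gad2* (chromosome 2, 22477725 to 22549394, plus strand) encodes GAD65, the form found at synaptic terminals. *Gad1* was at 159, 124 and 157 CPM in wild-type and 154, 149 and 164 CPM in *Nova2-/-* mice, a log2 fold change of 0.08 (SE 0.10, adjusted p = 0.677, edgeR's quasi-likelihood test). The low value was that of wild-type replicate 2. *Gad2* was at 129, 115 and 146 CPM in wild-type and 141, 136 and 123 CPM in *Nova2-/-* mice, a log2 fold change of 0.04 (SE 0.09, adjusted p = 0.864, edgeR's quasi-likelihood test). The lowest *Gad2* value was again in wild-type replicate 2, and the groups overlapped. *Gad1* was the only 1 of the 9 transcripts with deposited counts that were not whole numbers, in all 12 mice.

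*Sst*, on chromosome 16 of mm9 from 23889667 to 23890930, encodes somatostatin, an inhibitory neuropeptide. It was at 26.5, 23.8 and 28.0 CPM in wild-type littermates and at 12.3, 14.7 and 16.9 CPM in *Nova2-/-* mice, from 672, 402 and 835 counts and from 277, 328 and 383 counts. Every *Nova2-/-* mouse lay below every wild-type mouse. The log2 fold change was -0.83 (SE 0.13, adjusted p = 0.0366, edgeR's quasi-likelihood test), and it stayed between -0.95 and -0.72 with any 1 mouse left out. The adjusted p stayed below 0.05 only without wild-type replicate 3 (0.0134), and was 0.0681 to 0.171 without each of the 5 others (wild-type replicates 1 and 2 and all 3 *Nova2-/-* mice).

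*Npy* (chromosome 6 of mm9, 49772709 to 49779506, plus strand), the other peptide of the group, was at 66.4, 75.9 and 70.7 CPM in wild-type and 74.9, 88.0 and 63.9 CPM in *Nova2-/-* mice. The highest and the lowest of these 6 values were both in *Nova2-/-* mice, and the log2 fold change was 0.09 (SE 0.12, adjusted p = 0.713, edgeR's quasi-likelihood test).

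*Scgn*, on chromosome 13 of mm9 from 24045325 to 24083083, encodes secretagogin, an EF-hand calcium-binding protein. It was the least abundant of the 9, with 17, 17 and 21 counts in wild-type littermates and 56, 49 and 72 counts in *Nova2-/-* mice, or 0.671, 1.01 and 0.704 CPM and 2.49, 2.20 and 3.18 CPM. Every *Nova2-/-* mouse lay above every wild-type littermate. The log2 fold change was 1.75 (SE 0.29, adjusted p = 0.0380, edgeR's quasi-likelihood test), and 1.58 to 1.94 with any 1 mouse left out. Here too the adjusted p stayed below 0.05 only without wild-type replicate 3 (0.0184), and was 0.0939 to 0.178 without each of the 5 others.

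**Figure D1:**
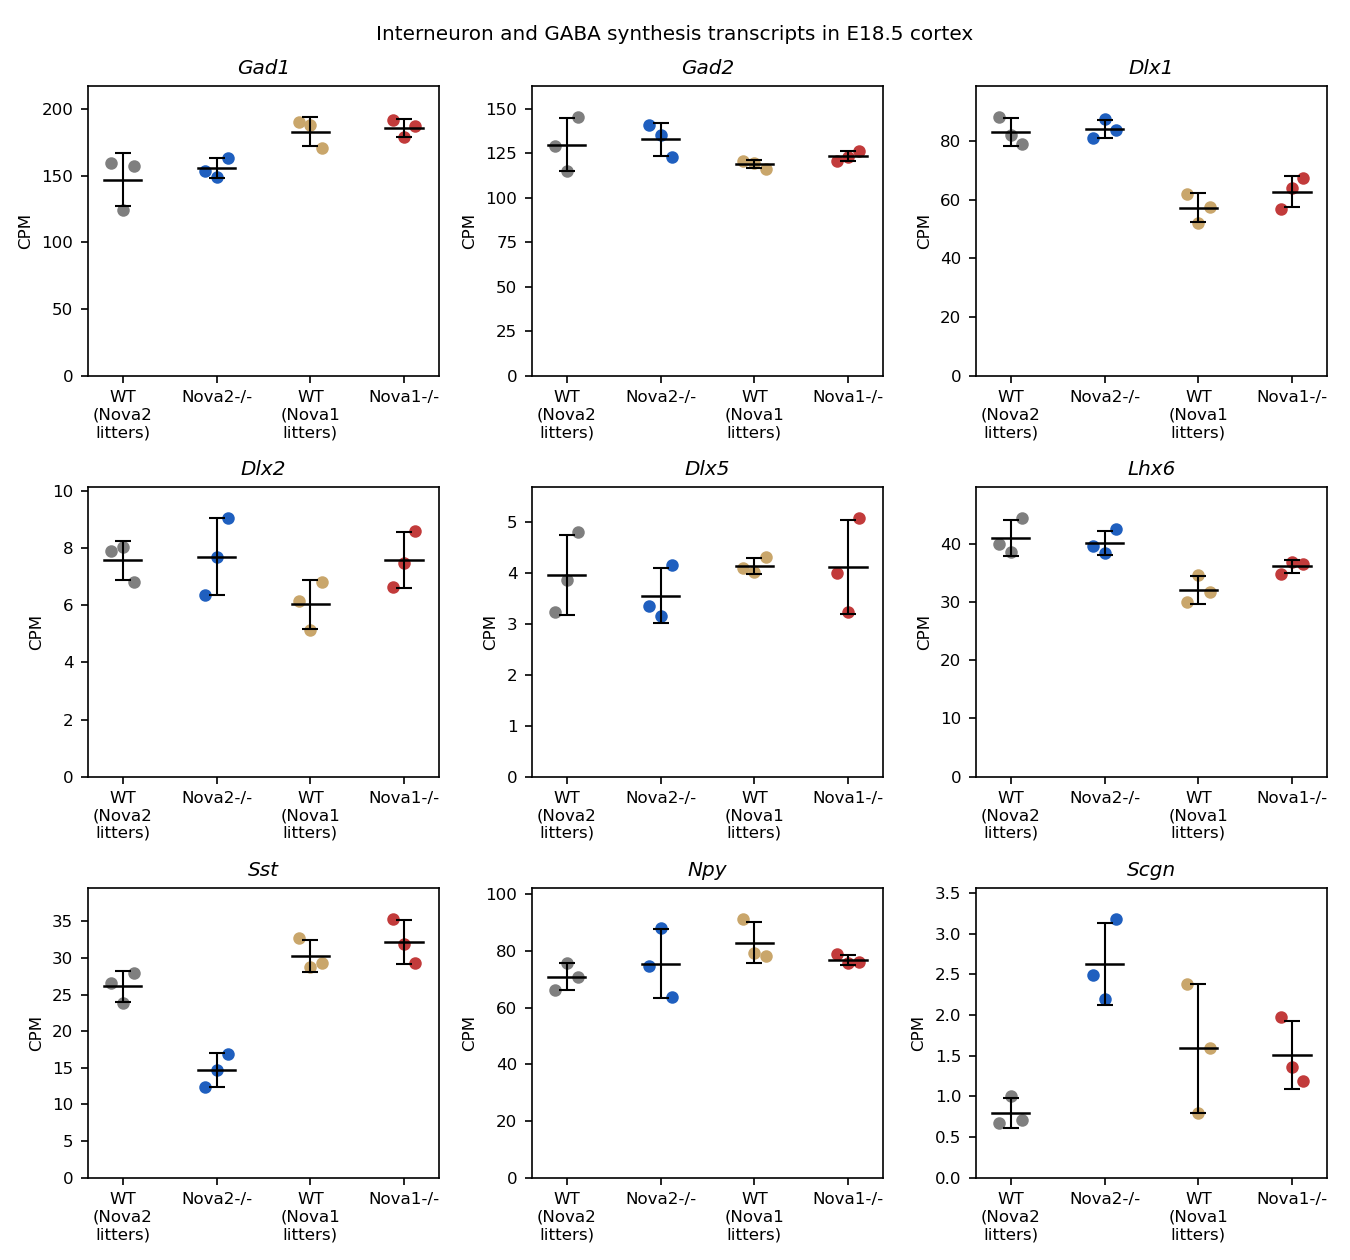
Level of each transcript in CPM (vertical axis, from 0) in 12 cortices at embryonic day 18.5. Points are mice, the horizontal line is the mean and the bars are the SD of 3 mice. *Sst* in *Nova2-/-* mice (12.3 to 16.9 CPM) lies below all other mice, *Dlx1* is lower in both groups of the *Nova1* litters, and *Scgn* is spread widely in wild-type mice of the *Nova1* litters (0.794 to 2.38 CPM).

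Of the 9 transcripts, 1 rose and 1 fell at an adjusted p below 0.05, where 1.06% of all genes tested passed in either direction. At the study's thresholds, which add a fold threshold of 1 on the log2 scale, only *Scgn* of the 9 passed, where 0.261% of all genes did (32 higher and 9 lower, or 177 higher and 14 lower when libraries were scaled to pan-neuronal genes). Groups of 3 did not overlap for 2 of the 9, against 25.9% of all genes. The median log2 fold change of the 9 was 0.03 and that of all genes 0.01, and 6 of the 9 were above 0. With 1 mouse left out in turn, both *Sst* and *Scgn* were called without wild-type replicate 3, and none of the 9 was called in the other 5 fits.

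**Figure D2:**
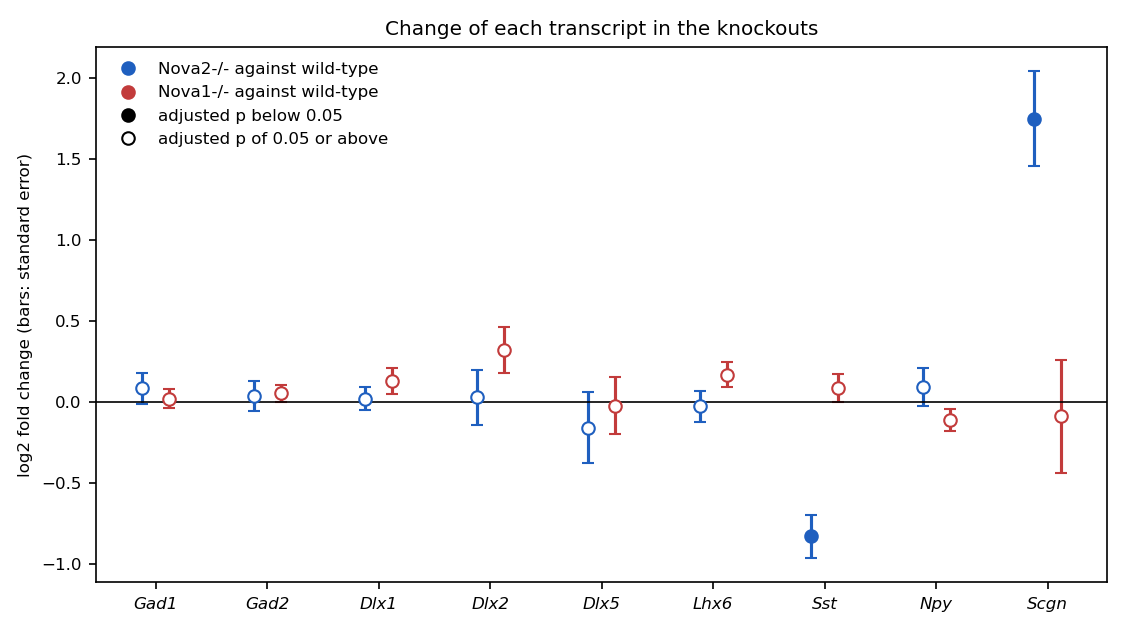
Log2 fold change (vertical axis) of each transcript in *Nova2-/-* and *Nova1-/-* cortex, each against its own wild-type littermates, with standard errors from the fit. Filled points passed an adjusted p of 0.05: *Sst* at -0.83 and *Scgn* at 1.75, both in *Nova2-/-* cortex.

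The same 9 transcripts were then compared in the *Nova1* litters. None passed, where 0.0126% of all genes did, with or without the fold threshold. At an unadjusted p below 0.05 there were 2 of the 9, and 1183 of all 15901 genes tested. These were *Dlx2*, at 6.15, 5.14 and 6.83 CPM in wild-type and 6.66, 7.49 and 8.62 CPM in *Nova1-/-* mice, and *Lhx6*, at 29.9, 34.6 and 31.7 CPM and at 34.8, 36.9 and 36.6 CPM. The *Lhx6* groups were apart only by the step from 34.6 to 34.8 CPM, and it was the only 1 of the 9 with groups apart, as were 13.4% of all genes. The log2 fold changes were 0.32 (SE 0.14, adjusted p = 0.660) for *Dlx2* and 0.17 (SE 0.08, adjusted p = 0.668) for *Lhx6* in edgeR's quasi-likelihood test.

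*Sst* was at 32.8, 28.7 and 29.3 CPM in wild-type mice of the *Nova1* litters and at 35.3, 31.9 and 29.3 CPM in *Nova1-/-* mice, a log2 fold change of 0.09 (SE 0.09, adjusted p = 0.869, edgeR's quasi-likelihood test). All 6 of these mice lay above the 3 *Nova2-/-* mice. *Scgn* was at 2.38, 0.794 and 1.60 CPM in the wild-type mice and 1.98, 1.36 and 1.18 CPM in *Nova1-/-* mice, a log2 fold change of -0.09 with a standard error of 0.35. The spread of *Scgn* among wild-type mice of the *Nova1* litters was wider than that among *Nova1-/-* mice, and the groups overlapped. The other 5 transcripts had log2 fold changes between -0.11 (*Npy*) and 0.13 (*Dlx1*) in *Nova1-/-* cortex.

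The difference between the knockouts was tested in a fit of all 12 mice. The change of *Sst* in *Nova2-/-* cortex minus that in *Nova1-/-* cortex was -0.93 on the log2 scale (SE 0.17, adjusted p = 0.0147, edgeR's quasi-likelihood test). *Sst* was the only one of the 9 to pass, where 1.83% of all genes did, and with any 1 of the 12 mice left out the difference stayed between -1.03 and -0.81, with an adjusted p of 0.0503 without wild-type replicate 5 and 0.0464 or less otherwise. For *Scgn* the difference was 1.83 (SE 0.50, adjusted p = 0.0802, edgeR's quasi-likelihood test), which did not pass. It was 2.13 (adjusted p = 0.0438) without wild-type replicate 5, the mouse of the *Nova1* litters with the lowest *Scgn*.

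Ratios of counts within a library need no scaling between libraries. *Sst* had 66.5, 61.9 and 63.1 counts per 100 *Lhx6* counts in wild-type littermates and 31.2, 38.5 and 39.9 in *Nova2-/-* mice, without overlap. The *Sst* ratios use the same *Sst* counts as the test above, so they are not a separate result. Per 100 counts of *Gad1* plus *Gad2* the *Sst* ratio was 9.47 ± 0.42 in wild-type littermates and 5.09 ± 0.87 in *Nova2-/-* mice (SD, n = 3 each). In the *Nova1* litters that ratio was 10.03 ± 0.615 in wild-type and 10.4 ± 0.999 in *Nova1-/-* mice (SD, n = 3 each). Against *Npy*, the other peptide, *Sst* had 40.0, 31.4 and 39.6 counts per 100 in wild-type and 16.5, 16.7 and 26.5 in *Nova2-/-* mice. *Lhx6* against *Dlx1* gave 49.4 ± 5.84 (SD, n = 3) and 47.7 ± 3.54 (SD, n = 3) per 100, which overlapped. The mean of *Sst* per *Lhx6* also differed between the wild-type groups, with 63.8 ± 2.43 in the *Nova2* litters and 95.0 ± 13.5 in the *Nova1* litters (SD, n = 3).

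**Figure D3:**
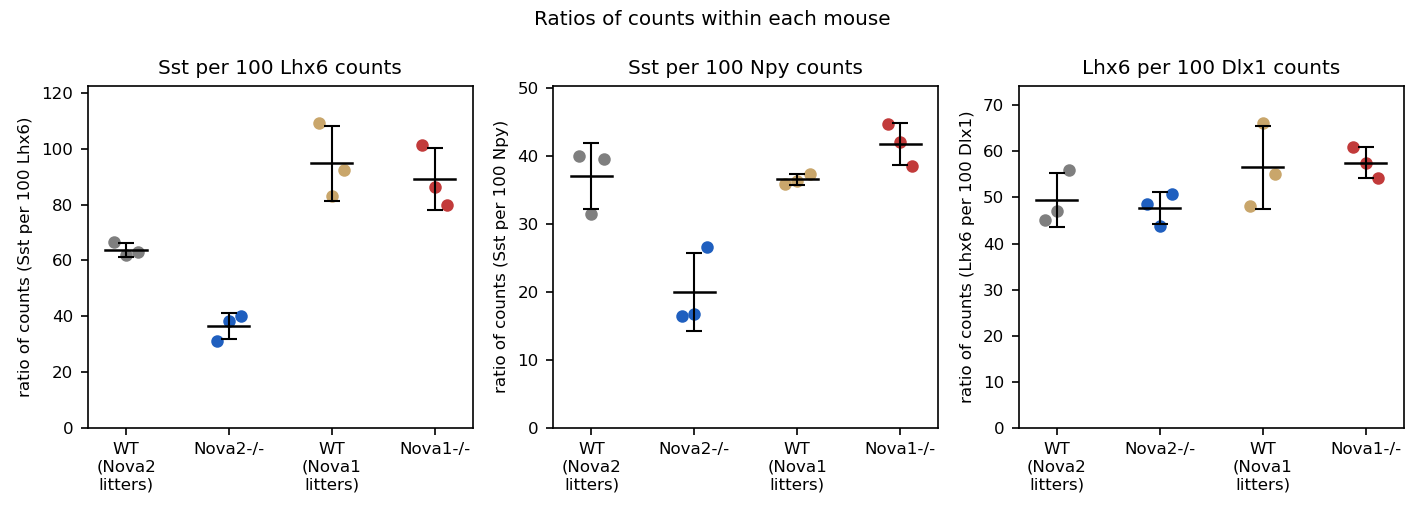
Ratios of counts within each mouse (vertical axes, from 0), with the mean and SD of 3 mice. *Sst* per 100 *Lhx6* counts is 31.2 to 39.9 in *Nova2-/-* mice and 61.9 to 66.5 in their wild-type littermates, *Sst* per 100 *Npy* counts is also lower in *Nova2-/-* mice, and *Lhx6* per 100 *Dlx1* counts overlaps.

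Levels between genes were compared per kilobase of exonic length in mm9. In the wild-type mice of the *Nova2* litters the order was *Npy* (125 ± 8.43 CPM per kilobase, SD, n = 3), *Sst* (43.6 ± 3.54), *Gad2* (22.1 ± 2.57), *Gad1* (19.2 ± 2.60), *Dlx1* (15.4 ± 0.86), *Lhx6* (8.63 ± 0.65), *Dlx5* (2.78 ± 0.55), *Dlx2* (2.66 ± 0.24) and *Scgn* (0.525 ± 0.12). The neighbours *Gad2* and *Gad1*, *Gad1* and *Dlx1*, and *Dlx5* and *Dlx2* overlapped between mice, and the other neighbours did not. In *Nova2-/-* mice *Sst* fell to 24.5 ± 3.84 CPM per kilobase (SD, n = 3) and overlapped with *Gad2* at 22.7 ± 1.58. *Npy* and *Sst* are short transcripts, of 566 and 599 exonic nucleotides, so both ranked above *Gad1*, of 7639 nucleotides, only on this scale.

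Markers of other tissues were counted beside these results, since *Scgn* is also expressed outside the cortex. The olfactory bulb list has 5 genes, 4 of which could be tested in the *Nova2* litters, and none passed. Its summed level was 49.6, 45.3 and 59.7 CPM in wild-type littermates and 58.9, 44.1 and 128 CPM in *Nova2-/-* mice. *Cdhr1*, a cadherin of mitral and tufted cells, supplied most of that range, with 3.43, 2.31 and 5.30 CPM in wild-type and 11.1, 3.50 and 55.8 CPM in *Nova2-/-* mice, a log2 fold change of 2.65 (SE 0.87, adjusted p = 0.161, edgeR's quasi-likelihood test). *Tbx21*, a transcription factor of the same cells, was at or below 0.267 CPM in these mice except *Nova2-/-* replicate 3, at 2.17 CPM. In wild-type mice of the *Nova1* litters *Cdhr1* was at 40.0, 9.48 and 22.7 CPM. Between the wild-type groups 1 of the 4 genes tested from this list passed, and it was lower in the *Nova2* litters. *Nova2-/-* replicate 3 also had the highest *Scgn* level, and wild-type replicate 4, with *Cdhr1* at 40.0 CPM, had the highest *Scgn* among the *Nova1* litters. In *Nova2-/-* replicate 2 *Cdhr1* was within the range of the wild-type littermates, and *Scgn* was at 2.20 CPM, above all 3 of them. Without *Nova2-/-* replicate 3 the log2 fold change of *Scgn* was 1.58 (adjusted p = 0.157, edgeR's quasi-likelihood test). The part of olfactory bulb tissue in the *Scgn* result was not tested.

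The meninges list moved with the *Nova2* comparison as a whole. Its 19 genes summed to 313, 382 and 808 CPM in wild-type littermates, 1264 to 1421 CPM in *Nova2-/-* mice, 1193 to 1511 CPM in wild-type mice of the *Nova1* litters and 1023 to 1201 CPM in *Nova1-/-* mice. In the *Nova2* litters all 19 had a log2 fold change above 0, with a median of 1.33, and 5 passed. *Sst* was at 28.7 to 32.8 CPM in the wild-type mice of the *Nova1* litters, whose meningeal sums covered the range of *Nova2-/-* mice. *Scgn* in those 3 wild-type mice spanned 0.794 to 2.38 CPM, which reached into the range of *Nova2-/-* mice. The part of meningeal tissue in the *Sst* and *Scgn* results was not tested.

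No gene of the remaining tissue and cell type lists passed in the *Nova2* litters. In *Nova2-/-* cortex none of the 10 projection neuron genes, 12 striatal genes, 8 choroid plexus genes, 4 endothelial genes, 4 microglial genes or 3 thalamic genes passed, and the 7 midbrain and hindbrain genes were too low to be tested. The median log2 fold changes were 0.01 for projection neurons, -0.07 for striatum, 0.21 for choroid plexus, 0.43 for endothelium, 0.12 for microglia and -0.09 for thalamus. Choroid plexus genes varied most within a group, with sums of 115 to 1550 CPM among the 3 *Nova2-/-* mice. Endothelial genes summed to 79.9 to 103.9 CPM in wild-type and 114.7 to 118.2 CPM in *Nova2-/-* mice, without overlap, and all 4 had a log2 fold change above 0. The part of these lists in the *Sst* and *Scgn* results was not tested. The 8 pan-neuronal genes did not pass either, but summed to 5159 to 5552 CPM in wild-type and 4511 to 4854 CPM in *Nova2-/-* mice. With libraries scaled to these genes the median of all genes moved to 0.19, *Sst* to -0.65 and *Scgn* to 1.93, and both were still called.

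**Figure D4:**
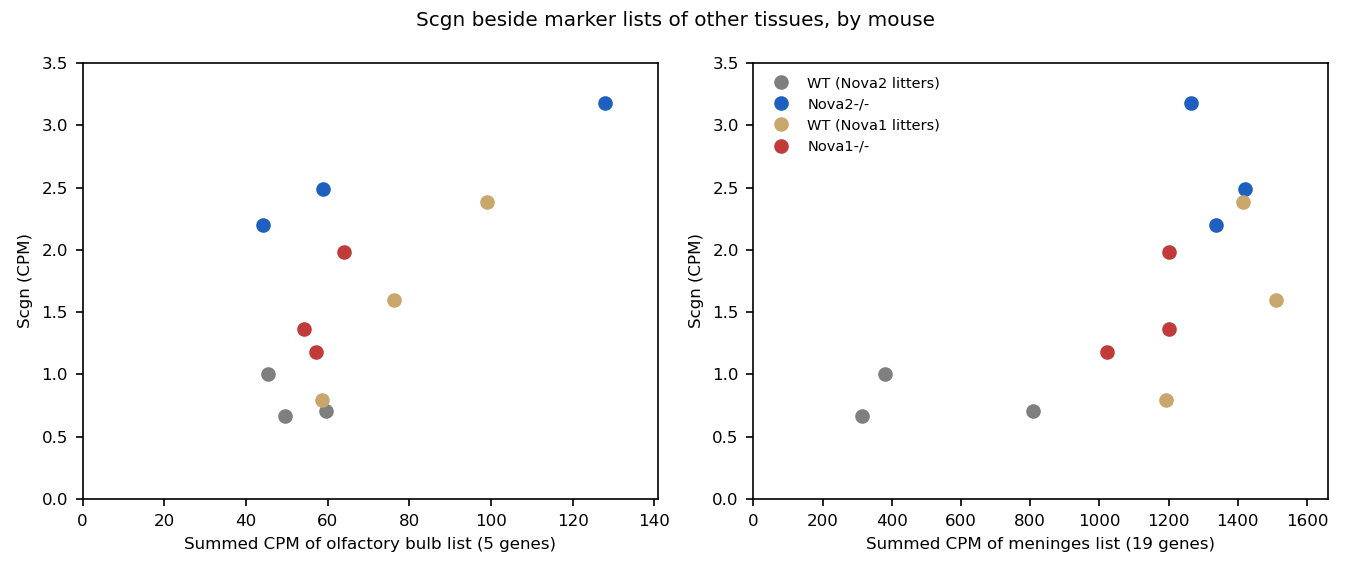
*Scgn* (vertical axis, CPM) against the summed CPM of 5 olfactory bulb genes (left) and 19 meningeal genes (right), 1 point per mouse. *Nova2-/-* mice are highest in *Scgn* apart from 1 wild-type mouse of the *Nova1* litters at 2.38 CPM, which has an olfactory bulb sum of 98.9 CPM, and the wild-type mice of the *Nova2* litters are lowest in meningeal genes.

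The rest of the interneuron program was described through 5 further lists. Of 16 other transcription factors of the lineage none passed in *Nova2-/-* cortex, with a median log2 fold change of 0.13. The smallest p-values were those of *Npas1*, a bHLH-PAS factor of forebrain GABAergic neurons, at 11.2, 14.8 and 10.9 CPM in wild-type and 7.79, 8.31 and 8.75 CPM in *Nova2-/-* mice (adjusted p = 0.120, edgeR's quasi-likelihood test), and *Dlx6*, the neighbour of *Dlx5*, at 6.04, 5.92 and 6.17 CPM and at 8.32, 7.95 and 11.1 CPM (adjusted p = 0.121, edgeR's quasi-likelihood test). Both had groups that did not overlap, as did 25.9% of all genes.

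Among 13 further subtype markers, 12 could be tested and 1 passed. *Cck*, which encodes the neuropeptide cholecystokinin of a class of interneurons and of projection neurons, was at 27.0, 24.7 and 20.9 CPM in wild-type and 14.2, 14.9 and 13.4 CPM in *Nova2-/-* mice, 58.6% of the wild-type level. Its log2 fold change was -0.77 (SE 0.12, adjusted p = 0.0332, edgeR's quasi-likelihood test), with an adjusted p of 0.00212 without wild-type replicate 3 and of 0.106 to 0.174 without each of the 5 others. In *Nova1-/-* cortex the log2 fold change of *Cck* was -0.03, and the difference between the knockouts was -0.75 (SE 0.16, adjusted p = 0.0355, edgeR's quasi-likelihood test), with an adjusted p of 0.0502 to 0.102 in 10 of the 12 fits that left out a mouse and below 0.05 without wild-type replicate 3 or *Nova1-/-* replicate 3. *Lamp5*, listed under its older name 6330527O06Rik, was at 1.18, 1.13 and 1.21 CPM in wild-type and 0.623, 0.494 and 0.530 CPM in *Nova2-/-* mice, with a log2 fold change of -1.09 (adjusted p = 0.120, edgeR's quasi-likelihood test).

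Receptors for the peptides did not pass in *Nova2-/-* cortex, where 7 of the 8 could be tested and the median log2 fold change was -0.01. *Sstr3* was at 2.60, 1.72 and 3.22 CPM in wild-type and 1.29, 1.26 and 1.94 CPM in *Nova2-/-* mice (log2 fold change -0.76, adjusted p = 0.235, edgeR's quasi-likelihood test), and *Sstr2*, the next by p-value, had a log2 fold change of -0.27. None of the 7 genes for uptake, packaging and breakdown of GABA passed in either knockout. *Slc6a12*, the betaine and GABA transporter, was at 0.671, 1.13 and 0.872 CPM in wild-type and 1.78, 2.70 and 1.28 CPM in *Nova2-/-* mice, and at 2.63, 2.01 and 3.25 CPM in wild-type and 1.68, 1.60 and 1.23 CPM in *Nova1-/-* mice. Its change differed between the knockouts by 1.93 (SE 0.43, adjusted p = 0.0391, edgeR's quasi-likelihood test). The group with the lowest *Slc6a12*, wild-type mice of the *Nova2* litters, also had the lowest meningeal sums. The part of meningeal tissue in the *Slc6a12* result was not tested. *Slc6a13*, another GABA transporter that is also on the meninges list, had a log2 fold change of 1.33 in *Nova2-/-* cortex (adjusted p = 0.167, edgeR's quasi-likelihood test).

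None of the 6 migration genes passed in *Nova2-/-* cortex at an adjusted p of 0.05, and 2 had an unadjusted p below 0.05, both with groups that did not overlap. Of all 15691 genes tested, 3005 had an unadjusted p below 0.05, and 25.9% had groups that did not overlap. *Erbb4*, the neuregulin receptor of migrating interneurons, was at 170, 150 and 152 CPM in wild-type and 180, 186 and 217 CPM in *Nova2-/-* mice (log2 fold change 0.30, adjusted p = 0.126, edgeR's quasi-likelihood test), and *Cxcr4*, the chemokine receptor of the same cells, was at 28.8, 31.0 and 31.1 CPM and at 25.8, 26.5 and 22.8 CPM (log2 fold change -0.27, adjusted p = 0.182, edgeR's quasi-likelihood test).

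The table of NOVA2-dependent splicing events holds 1991 events and none in the 9 genes. Only 539 gene symbols have an event, where the count table holds 23038, so an absence in 9 genes says little about them. Among the genes of the 5 further lists only *Erbb4* had an entry, with 2 cassette exons. The table gives ΔI, the inclusion fraction in wild-type minus that in the knockout as the authors computed it, as 1 value per genotype and region with no replicates, and a negative ΔI means more inclusion in the knockout. For the span from 68305755 to 68337057 on chromosome 1 of mm9, ΔI was -0.618 in *Nova2-/-* cortex, against 0.0215 in *Nova1-/-* cortex. For the span from 68089015 to 68118262 it was -0.222 without *Nova2* and -0.0890 without *Nova1*. In *Nova1-/-* midbrain and hindbrain the values were -0.00111 and -0.0370.

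The annotated exons inside these spans are shown because ΔI was negative there in *Nova2-/-* cortex, although the table gives spans and names no exon. Both are on the minus strand of mm9, and the capitals mark YCAY, with U written as T.
Erbb4, chr1:68336817-68336891: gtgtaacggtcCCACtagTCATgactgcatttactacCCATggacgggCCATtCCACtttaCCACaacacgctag
Erbb4, chr1:68090482-68090529: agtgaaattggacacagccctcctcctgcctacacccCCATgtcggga
The first, of 75 nucleotides, encodes the juxtamembrane stretch with the cleavage site of the receptor, and a longer annotated form of 163 nucleotides has the same 5′ end on the transcript. It holds 6 YCAY, and 16 lie within the exon and 200 nucleotides on either side. The second, of 48 nucleotides, encodes a cytoplasmic binding site for phosphoinositide kinase and holds 1 YCAY, with 12 in the same kind of window. A match to these letters is not evidence of binding.

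Wild-type mice of the 2 sets of litters were also compared, as a measure of how far these transcripts vary without a deletion. The comparison shares the wild-type mice of the *Nova2* litters with the *Nova2-/-* comparison. *Dlx1* was called: at 62.0, 52.3 and 57.6 CPM in the *Nova1* litters it lay below the 79.2 to 88.3 CPM of the *Nova2* litters, a log2 fold change of -0.54 (SE 0.09, adjusted p = 0.0232, edgeR's quasi-likelihood test), where 3.03% of all genes passed. Its adjusted p stayed below 0.05 only in 1 of the 6 fits that left out a mouse, without wild-type replicate 3, and rose to as much as 0.140 without the others (replicates 1, 2, 4, 5 or 6). *Dlx1as* was lower in the same mice, at 46.2 to 53.7 CPM against 58.1 to 74.6 CPM. The litters, any difference in their handling and the meningeal sums above cannot be told apart here.

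*Gad1*, *Sst* and *Npy* were higher and *Dlx1* and *Lhx6* lower in the *Nova1* litters without overlap between the wild-type groups, which makes 5 of the 9 against 26.9% of all genes, and of these only *Dlx1* passed the test. *Lhx6* had a log2 fold change of -0.35 (SE 0.10, adjusted p = 0.0868) and *Gad1* of 0.32 (SE 0.10, adjusted p = 0.113) in edgeR's quasi-likelihood test. *Gad1* counts per 100 *Gad2* counts were 124, 107 and 108 in wild-type mice and 109, 110 and 133 in *Nova2-/-* mice, against 157, 158 and 146 in wild-type mice and 159, 145 and 148 in *Nova1-/-* mice. The 6 mice of each set of litters thus stood apart whatever their genotype. Their libraries also stood apart in the share of deposited counts that were not whole numbers. That share was at most 11.7% in the *Nova2* litters and at least 18.6% in the *Nova1* litters. Among the 9 transcripts only *Gad1* had such counts. Their part in the difference in *Gad1* between the litters was not tested. *Scgn*, with a log2 fold change of 1.03 (SE 0.42, adjusted p = 0.203, edgeR's quasi-likelihood test), had wild-type values that overlapped between the litters.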

How the data were processed

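Expression of 9 named genes was read from the table of expected counts that the authors deposited for 12 cortex samples at embryonic day 18.5. The authors extracted total RNA with Trizol, depleted ribosomal RNA with Ribo-Zero, made TruSeq libraries, sequenced paired-end reads on a HiSeq instrument and aligned them to mm10 with OLego. The counting program and its annotation are not given in the sources used here. The table also holds the authors' fold changes and FDR values, which were not used. Their table of splicing events gives ΔI, deposited as 1 difference per event on mm9, without replicates. Counts of midbrain and hindbrain were not used here.

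Expected counts were rounded, filtered by filterByExpr, scaled by TMM and tested with edgeR 4.0.16 in R 4.3.3 (edgeR's quasi-likelihood test, Benjamini-Hochberg adjustment over all genes tested). Each knockout was fitted with its 3 wild-type littermates, and the difference between the knockouts with all 12 samples. The litters of wild-type samples are an inference: the labels number them 1 to 6 without naming a litter, samples 4 to 6 are also the ones with midbrain and hindbrain beside *Nova1-/-*, and the paper describes littermate controls. Standard errors are the log2 fold change divided by the square root of F, and the fits were tested on simulated data. Totals of 16518172 to 31362018 counts bound the precision, which for *Scgn* rests on 17 to 72 counts. Positions and exonic lengths come from the NCBIM37 (mm9) annotation, promoter windows from RefSeq GRCm38.p6. Tables and figures were made with Python 3.11.15, pandas 2.3.3 and matplotlib 3.10.9.

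The 9 genes and all lists were chosen with earlier results of these data known. All 9 are described. From each further interneuron list the text names genes called in any comparison, at most 6, or otherwise the 2 with the smallest p in *Nova2-/-* cortex, and for each of the 9 the 3 genes most like it across mice. Some genes that this rule names are not reported here. Names outside this rule, *Npas1*, *Dlx6*, *Slc6a13*, *Lamp5*, *Cdhr1*, *Tbx21* and *Dlx1as*, were chosen after their values were seen. Same-numbered mice of the *Nova2* litters were too few to show whether the numbers pair them. Alternatives tried were a floor of 10 counts per sample, no filter, scaling to the upper quartile or to pan-neuronal genes, DESeq2 1.42.0, edgeR's exact test, all 12 samples in 1 fit, a replicate block and each sample left out.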

Additional observations from a re-analysis of the deposited data

Results flagged for a closer look

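3 transcripts changed differently in the 2 knockouts by the test of the difference itself (edgeR's quasi-likelihood test on all 12 mice, Benjamini-Hochberg adjustment). *Sst* did so by -0.93 on the log2 scale, with a change of -0.83 in *Nova2-/-* and 0.09 in *Nova1-/-* cortex, and all 3 *Nova2-/-* mice lay below the other 9. *Cck* did so by -0.75, with changes of -0.77 and -0.03, and no longer passed in 10 of the 12 fits that left out a mouse. *Slc6a12* did so by 1.93, with changes of 1.13 and -0.81, neither of which passed by itself, and its wild-type groups differed by 1.59 on the log2 scale between the litters (adjusted p = 0.0340, edgeR's quasi-likelihood test). Groups of 3 are too small for a test of single outlying mice.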

How the results depend on the processing

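Of 684 values of named genes under the alternatives, 626 kept their side of the threshold, 48 no longer passed and 10 newly passed. No called value changed sign, but 33 of the values that were not called did. Genes past both thresholds in *Nova2-/-* cortex numbered 41, and 67 with no filter, 191 scaled to pan-neuronal genes (177 higher, 14 lower), 129 by DESeq2, 170 by edgeR's exact test, 185 with all 12 samples in 1 fit and 4 to 254 with 1 mouse left out (254 without wild-type replicate 3). In *Nova1-/-* cortex the 2 became 1 with at least 10 counts, 4 by DESeq2, 10 by the exact test and 1 to 7 with 1 mouse left out. For the difference between the knockouts the 113 became 367 scaled to pan-neuronal genes, where the median of all genes moved to 0.21, 207 by DESeq2 and 59 to 315 with 1 mouse left out. Between wild-type groups the 103 became 223 by the exact test, 209 with all 12 samples and 3 to 459 with 1 mouse left out. The causes were not tested.

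With 1 mouse left out, *Sst* in *Nova2-/-* cortex ranged from -0.95 to -0.72 and *Scgn* from 1.58 to 1.94, and in the difference *Sst* from -1.03 to -0.81 and *Scgn* from 1.44 to 2.13. The difference in *Scgn* was 2.05 scaled to pan-neuronal genes and 1.83 by DESeq2, and passed in both (adjusted p = 0.0231 and 0.0253). With the replicate block *Scgn* was 1.75 (adjusted p = 0.0603, edgeR's quasi-likelihood test), *Sst* was -0.84 (adjusted p = 0.0328) and 55 genes passed. Whether the numbers pair these mice could not be told from so few of them. Same-numbered deviations correlated by 0.0967, -0.0135 and 0.145. Those of differently numbered mice correlated by -0.187 to 0.119, the highest between replicate 1 of the wild-type mice and *Nova2-/-* replicate 2. The depth limits *Scgn* most, at 17 to 72 counts per mouse.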

Other observations

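Likeness between transcripts was measured by Pearson's r of log2 CPM across the 12 mice after each set of litters was centred on its own mean, against 14472 genes with a mean of at least 1 CPM. The centring leaves differences between knockout and wild-type mice in these values. Mice of 1 genotype share a group and transcripts of 1 mouse share a library, so these values are descriptions. *Sst* was most like *Lhfpl3* (r = 0.95), *Gabra3* (r = 0.94), a subunit of the GABA-A receptor, and *Cntn5* (r = 0.94), a contactin. *Scgn* was most like *Aim1* (r = 0.94), *Plod1* (r = 0.92), a collagen lysyl hydroxylase, and *Ptpn13* (r = 0.91). *Gad1* was most like *Calb2* (r = 0.88), which encodes the interneuron marker calretinin, *Krt222* and *Fbxo44*, and *Gad2* was most like *Tmem39b* (r = 0.94), *Agt* and *Lrch1*.

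The transcription factors *Dlx2*, *Dlx5* and *Lhx6* had other nearest genes: *Abca8b*, *Acsf3* and *Hsd3b2* for *Dlx2*, *Zfand3*, *Tuft1* and *Chd1l* for *Dlx5*, and *Tab1*, *Specc1l* and 6330416G13Rik for *Lhx6*. None of the 9 was among the 3 genes most like another. Each 3 came from 14472 genes, so this absence says little about the 9. Among the 36 pairs of the 9 the highest r was 0.76, between the neighbours *Dlx1* and *Dlx2*. The lowest was -0.67, between *Sst* and *Scgn*, which were called in opposite directions in *Nova2-/-* cortex, so their r is not a separate result. *Gad1* and *Gad2* had r = 0.53, *Lhx6* and *Sst* r = 0.20, and *Lhx6* and *Npy* r = -0.66, over the same 12 mice.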
